A study of Mus musculus with 12 samples.

Results

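The genes described here encode the secreted and membrane-bound metalloproteases that cut the extracellular matrix and the surface of cells, together with the proteins that inhibit them. They were chosen by name alone. Every gene whose symbol begins with Mmp, Adam, Adamts, Adamtsl or Timp followed by a digit was taken, which gave 75 of the 36400 genes in the deposited table. The set holds 23 matrix metalloproteases (MMPs), 24 ADAM genes, 19 ADAMTS genes, 5 ADAMTS-like genes and 4 tissue inhibitors of metalloproteases (TIMPs). All 75 overlapped their position in the GRCm38 annotation of GENCODE M21.

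Dorsal skin of female BALB/c mice, 6 weeks old at the start, was sequenced in 12 libraries, 3 in each of 4 groups, all collected on day 30. All groups were shaved. The control group, labelled Solvent, received the vehicle of acetone and olive oil. The other 3 groups were sensitized with 1% 2,4-dinitrochlorobenzene (DNCB), a hapten that gives an eczema-like dermatitis, and then challenged repeatedly with 0.5% DNCB. The DNCB group received nothing more that the sources used here name. The scMSC group also received 2000000 human umbilical cord mesenchymal stem cells (MSCs) per injection, as 100 µL under the dorsal skin, and 4 such injections fell between days 13 and 25. The scivMSC mice had every dose divided, with 50 µL given beneath the skin and 50 µL by the tail vein. The mice still had their own immune cells, which in this model carry the reaction to the hapten. The labels number 3 samples in each group and do not tie a number to a mouse, so the p-values measure the spread between these samples.

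The matrix of skin is a meshwork of collagens, proteoglycans and elastic microfibrils, and its turnover depends on zinc proteases that are made as inactive precursors. Collagenases open the collagen triple helix, gelatinases and stromelysins digest the opened chains and the basement membrane, and ADAMTS proteases trim proteoglycans such as versican. ADAM proteases sit in the cell membrane and release the outer part of neighbouring proteins, among them growth factors, cytokines and adhesion molecules. TIMPs block the active site of most of these enzymes, so their level relative to that of the proteases is a usual measure of how much proteolysis a tissue permits. In inflamed skin, MMPs are known products of infiltrating leukocytes, of activated fibroblasts and of keratinocytes at wound edges.

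Levels are given in FPKM (fragments per kilobase of transcript per 1000000 mapped fragments), which corrects for gene length and library size. The library totals ran from 63877153 to 75134001 estimated counts, and about 4 estimated counts corresponded to 1 fragment. The 75 genes took 0.150% to 0.196% of the estimated counts in the control libraries, 0.373% to 0.392% in the DNCB libraries, 0.157% to 0.309% in the scMSC libraries and 0.119% to 0.283% in the scivMSC libraries. Of these genes, 59 averaged 0.1 FPKM or more across all libraries and were tested together with all other genes that reached it, 21890 in all. Some of them passed this filter through 1 group: 8 had a control mean under 0.1 FPKM, 7 an scMSC mean, 4 an scivMSC mean and 1 a DNCB mean under it. A gene was called when its edgeR p, adjusted over all 21890 genes, was under 0.05 and its log2 fold change was over 1 in size. Errors of log2 fold changes are standard errors (SE) of the fit, and group levels are given as mean ± SD (n = 3 libraries). With 3 libraries against 3 a permutation test cannot give an exact p under 0.10 for 1 gene taken alone.

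Members of all 3 protease families rose in DNCB skin relative to control skin, while among the inhibitors 1 rose and 1 fell. Against control, 22 of the 59 tested genes were called higher in DNCB and 3 were called lower, whereas of all genes tested 6.59% were higher and 7.57% lower. Against scMSC the counts were 15 higher and 3 lower in DNCB, beside 3.84% and 4.66% of all genes. Against scivMSC they were 8 higher and 1 lower, beside 2.33% and 3.13%. The median log2 fold change of the 59 genes was 1.14 in the comparison with control, 0.94 in that with scMSC and 0.67 in that with scivMSC, while the medians over all genes were 0.02, -0.02 and -0.02. By family, 11 of 18 tested MMPs, 6 of 17 ADAMTS genes, 4 of 15 ADAMs and 1 of 4 TIMPs were called higher in DNCB than control, and 2 of 5 ADAMTS-like genes and 1 TIMP were called lower. The 3 comparisons share the DNCB libraries. In FPKM, all 3 DNCB libraries lay above all 9 others for 25 of the 59 genes, a position that 9.44% of all tested genes took. They lay below all 9 others for 1 gene, Timp3, and for 4.03% of all tested genes.

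Scaling by library size alone, without TMM factors, raised the median of all genes in DNCB against control from 0.02 to 0.20. The share of higher genes among all called genes then moved from 46.55% to 60.8% in that comparison, from 54.9% to 68.8% in scMSC against control and from 51.1% to 66.7% in scivMSC against control. The counts of this gene set under that scaling were 23 higher and 1 lower in DNCB against control, beside 2020 and 1301 of all 21890 genes. The 25 calls against control included 18 that held when any 1 library was left out. Against scMSC 7 of the 18 calls held in this way, those of Timp1, Mmp8, Mmp9, Mmp13, Adam8, Adam12 and Adamts4. Of these, Mmp8 reached the filter on low genes through its DNCB level. The count against scMSC fell to 11, 10, 10 and 11 without DNCB replicate 1, DNCB replicate 2, scMSC replicate 2 and scMSC replicate 3. Calls over all genes, 840 higher and 1021 lower against scMSC, fell as well in these runs. They were 558 and 732, 545 and 686, 533 and 689, and 563 and 919, in that order. Against scivMSC 2 of the 9 calls held, those of Timp1 and Mmp9. There the count was 2 when DNCB replicate 1, DNCB replicate 2 or scivMSC replicate 1 was left out, and 3 when DNCB replicate 3 or scivMSC replicate 3 was. Calls over all genes against scivMSC, 509 higher and 686 lower, fell too. They were 217 and 325, 216 and 280, 186 and 290, 270 and 384, and 232 and 387 in these runs, in that order.

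**Figure D1:**
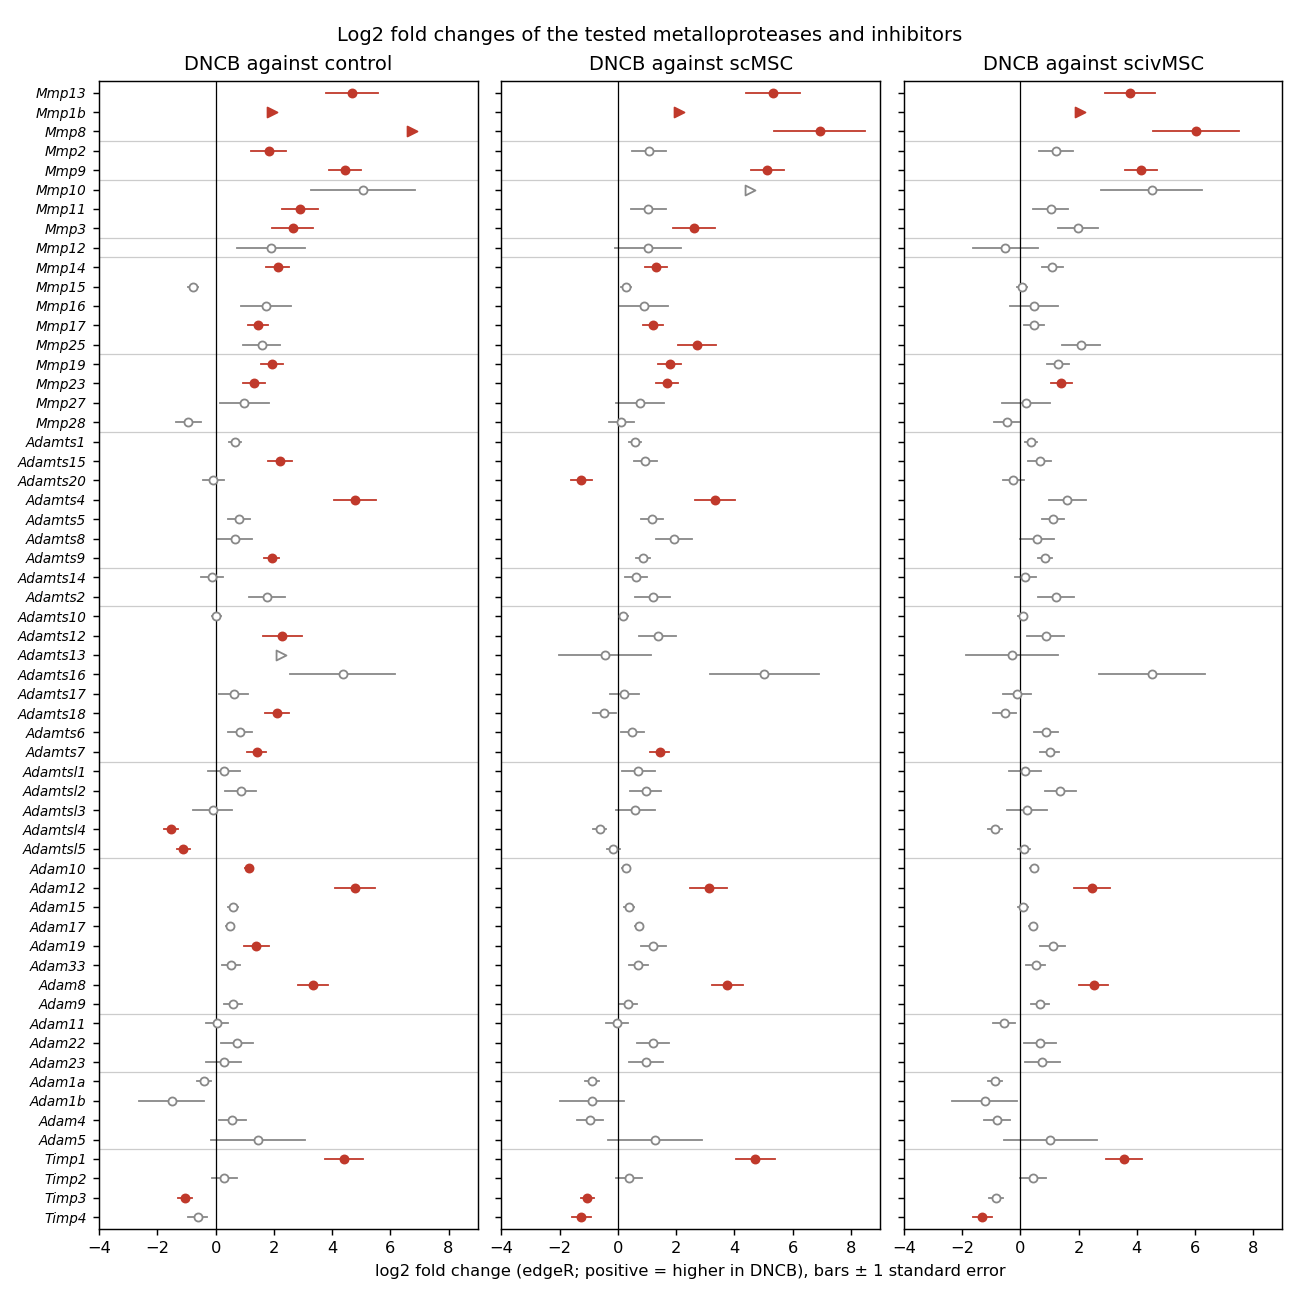
Log2 fold change (edgeR) of each of the 59 tested genes in DNCB against control, scMSC and scivMSC, with genes grouped by class between the grey lines, from collagenases at the top to tissue inhibitors at the bottom. Filled red symbols are called genes, open grey symbols genes that were not called, bars ± 1 SE, and triangles lower bounds where the other group was at or under 12 estimated counts in every library. Most of the MMP genes lie to the right of 0 in all 3 panels, and Timp1 does so beside Timp3 and Timp4 on the left.

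Marker transcripts of several cell types differed between the groups, and in whole skin fewer cells of a type and less RNA per cell cannot be told apart. The summed level of 12 neutrophil markers ran from 2560 to 3611 FPKM in DNCB and from 16.5 to 214 FPKM over the other 9 libraries, and the neutrophil surface antigen Ly6g was at 0 in every library outside the DNCB group. Of the 11 markers tested, 9 rose and 1 fell in DNCB relative to control. The summed level of 7 fibroblast markers was 1398 to 1723 FPKM in DNCB, 328 to 480 FPKM in control, 267 to 733 FPKM in scMSC and 129 to 819 FPKM in scivMSC, with 4 of 7 called higher in DNCB against control. The 4 keratins Krt6a, Krt6b, Krt16 and Krt17 of stressed epidermis summed to 7079 to 8807 FPKM in DNCB, 484 to 553 FPKM in control, 683 to 1453 FPKM in scMSC and 1152 to 4581 FPKM in scivMSC. The 7 skeletal muscle markers summed to 13560 to 19380 FPKM in control and to 3934 to 10320 FPKM in the other libraries. The 10 markers of macrophages and monocytes summed to 917 to 991 FPKM in DNCB and 211 to 805 FPKM in control, with 1 of 10 called higher, and to 173 to 403 FPKM in scMSC and 52.1 to 430.2 FPKM in scivMSC. The 8 mast cell markers summed to 102 to 120.2 FPKM in DNCB and 22.8 to 37.9 FPKM in control, with 3 of 8 called higher, and to 54.8 to 121 FPKM in scMSC and 19.4 to 117 FPKM in scivMSC, with none called between DNCB and either MSC group. Of 5 tested T cell markers 1 was called higher in DNCB than control, and of 6 endothelial markers 1. Of 6 keratins and other markers of ordinary epidermis, 2 were called higher and 1 lower. Beside these marker counts, 6.59% of all genes tested were called higher and 7.57% lower in DNCB than control. The part of these differences in the protease levels was not tested.

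Among the collagenases, Mmp13 and Mmp8 were called higher in DNCB than in all 3 other groups. Mmp13, the main interstitial collagenase of rodents, measured 14.9, 9.67 and 15.6 FPKM in the DNCB libraries. The control libraries held 0.333, 0.541 and 0.500 FPKM, the scMSC libraries 0.292, 0.591 and 0.0700 FPKM and the scivMSC libraries 0.699, 2.15 and 0.166 FPKM. No library outside the DNCB group came near the lowest DNCB library. The log2 fold change of Mmp13 was 4.67 ± 0.90 (adjusted p = 0.00406) relative to control, 5.33 ± 0.93 (adjusted p = 0.00498) against scMSC and 3.76 ± 0.86 (adjusted p = 0.0250) against scivMSC. The last of these calls was lost on leaving out replicate 1, 2 or 3 of DNCB or replicate 1 or 3 of scivMSC (adjusted p = 0.0537 to 0.0991).

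Mmp8, the collagenase stored in neutrophil granules, measured 6.93, 6.94 and 8.0 FPKM in DNCB and was nearly absent elsewhere, at 0.0214, 0 and 0.0445 FPKM in control, 0, 0.163 and 0 FPKM in scMSC and 0.115, 0.221 and 0 FPKM in scivMSC. Every control library was at or under the floor of 12 estimated counts, about 3 fragments, so Mmp8 was at least 106-fold higher in DNCB. Mmp8 reached the filter on low genes through its DNCB level, with means of 0.022, 0.054 and 0.112 FPKM in control, scMSC and scivMSC. Its tests could thus hardly find it other than higher in DNCB. Its adjusted p was 0.00590 relative to control, 0.0153 against scMSC and 0.0325 against scivMSC, the last lost on leaving out replicate 1, 2 or 3 of DNCB or replicate 1 or 3 of scivMSC (adjusted p = 0.0722 to 0.114). Mmp1b, which lies outside the naming rule because it stayed under 1 FPKM, measured 0.244, 0.301 and 0.754 FPKM in DNCB and 0 in all 9 other libraries. It reached the filter on low genes through the DNCB group alone, so that its test could only find it higher there. It was at least 3.82-fold higher than control, where its adjusted p was 0.0145, at least 4.29-fold higher than scMSC and at least 4.15-fold higher than scivMSC. The calls against scMSC and scivMSC were lost on leaving out replicate 1, 2 or 3 of DNCB or replicate 2 of scMSC (adjusted p = 0.0521 to 0.0689) and on leaving out replicate 1, 2 or 3 of DNCB or replicate 1 or 3 of scivMSC (adjusted p = 0.0701 to 0.0965), respectively. The call against scivMSC was also lost without the filter on low genes (adjusted p = 0.0606). Its paralog Mmp1a was seen only in DNCB too, at 0.0997, 0.0452 and 0.0884 FPKM, too low to be tested. Reads may be split between the Mmp1a and Mmp1b genes, and Mmp1b overlaps Mmp12 on the other strand, so the single values are uncertain.

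Of the gelatinases, Mmp9 was called higher in DNCB than in all 3 other groups, and Mmp2 was called against control. Mmp9, the gelatinase of neutrophils, macrophages and migrating keratinocytes, measured 26.8, 19.4 and 39.6 FPKM in DNCB. It measured 1.34, 0.802 and 1.33 FPKM in control, 0.775, 0.948 and 0.644 FPKM in scMSC and 1.29, 3.05 and 0.518 FPKM in scivMSC. The lowest DNCB library thus stood well above the highest of the other 9. The log2 fold change of Mmp9 was 4.44 ± 0.56 (adjusted p = 0.000768) relative to control, 5.13 ± 0.58 (adjusted p = 0.00162) against scMSC and 4.15 ± 0.55 (adjusted p = 0.00415) against scivMSC, and all 3 calls held without any 1 library. Mmp9 lies on chromosome 2 at 164940780 to 164955850 of GRCm38, on the plus strand.

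Mmp2, the gelatinase of fibroblasts, was the MMP with the highest level in every group. It measured 140.3, 139 and 164 FPKM in DNCB, 32.2, 34 and 44.8 FPKM in control, 123, 32.6 and 57.8 FPKM in scMSC and 88.0, 92.2 and 13.5 FPKM in scivMSC. The DNCB libraries were above all others, but scMSC replicate 1 came near them and scivMSC replicate 3 was the lowest of all. Mmp2 gave a log2 fold change of 1.82 ± 0.59 (adjusted p = 0.0441) relative to control, a call lost on leaving out replicate 1, 2 or 3 of control, replicate 1, 2 or 3 of DNCB, replicate 3 of scMSC or replicate 1 of scivMSC (adjusted p = 0.0520 to 0.136) and without the filter on low genes (adjusted p = 0.0559). It did not pass against scMSC, at 1.05 ± 0.58 (adjusted p = 0.295), or against scivMSC, at 1.22 ± 0.58 (adjusted p = 0.245). Within each MSC group the fibroblast marker sum took the same order as Mmp2, with 733, 267 and 386 FPKM in scMSC replicates 1, 2 and 3 and 697, 819 and 129 FPKM in scivMSC replicates 1, 2 and 3. Its part in the spread of Mmp2 was not tested.

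**Figure D2:**
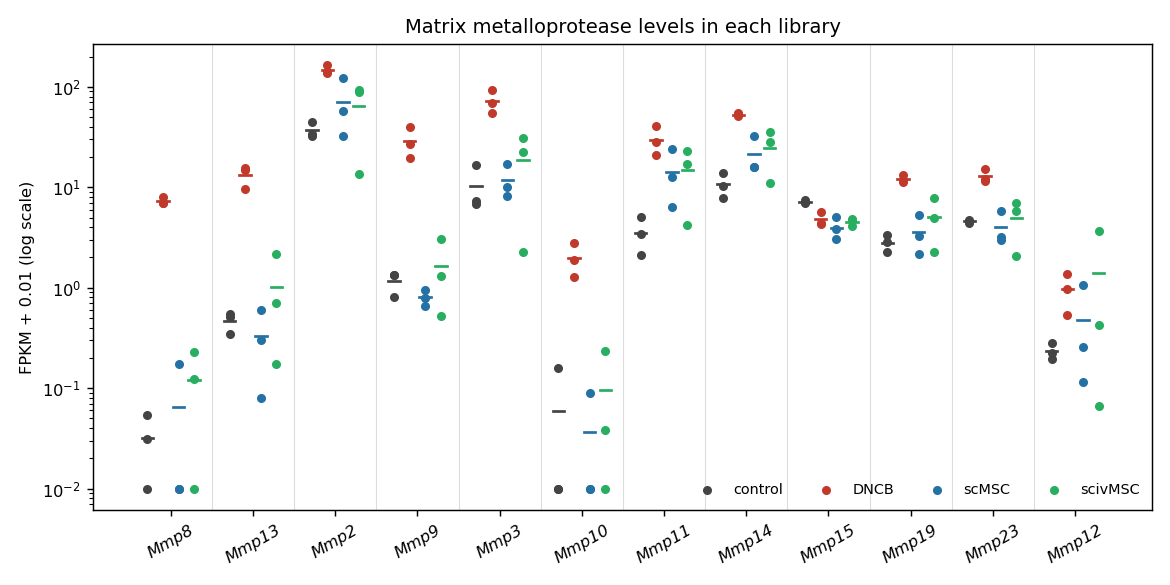
Level of 12 MMP genes in each library, as FPKM + 0.01 on a log axis, with points for libraries and short bars for group means (n = 3). Mmp8, Mmp13 and Mmp9 show DNCB libraries far above the rest. In Mmp2, Mmp11 and Mmp14 the means of the MSC groups lie between those of control and DNCB, with a wide spread of their libraries.

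Of the stromelysins, Mmp3 and Mmp11 rose in DNCB against control. Mmp3, which digests basement membrane and activates other MMP precursors, measured 68.9, 54.5 and 93.6 FPKM in DNCB, 7.37, 6.83 and 16.7 FPKM in control, 17.0, 8.09 and 10.1 FPKM in scMSC and 22.5, 31.1 and 2.27 FPKM in scivMSC. No other group overlapped with DNCB. In the fit, Mmp3 had a log2 fold change of 2.65 ± 0.71 (adjusted p = 0.0197) relative to control and 2.61 ± 0.71 (adjusted p = 0.0351) against scMSC, and against scivMSC it did not pass, at 1.98 ± 0.69 (adjusted p = 0.110), except with DESeq2 (adjusted p = 0.0152). The call against control was lost on leaving out replicate 1 or 2 of control or replicate 3 of DNCB (adjusted p = 0.0564 to 0.0811), and that against scMSC was lost on leaving out replicate 1, 2 or 3 of DNCB or replicate 1, 2 or 3 of scMSC (adjusted p = 0.0524 to 0.124). The latter was also lost with limma on log2(FPKM + 0.1), with an adjusted p of 0.0525.

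Mmp11, a stromelysin of stromal cells around remodelling epithelium, measured 28.0, 40.6 and 20.8 FPKM in DNCB, 5.04, 2.09 and 3.41 FPKM in control, 24.0, 12.8 and 6.31 FPKM in scMSC and 22.9, 17.2 and 4.16 FPKM in scivMSC. In each MSC group 1 library reached the range of DNCB, and all MSC libraries but scivMSC replicate 3 lay above the control libraries. On the log2 scale Mmp11 differed by 2.90 ± 0.63 (adjusted p = 0.00732) relative to control and did not pass against scMSC, at 1.04 ± 0.59 (adjusted p = 0.315), or scivMSC, at 1.04 ± 0.59 (adjusted p = 0.340). Mmp11 overlaps Chchd10 on the other strand, whose level moved the other way, from 79.5 ± 28.9 FPKM in control to 21.8 ± 3.85 FPKM in DNCB. Mmp10 measured 1.89, 1.26 and 2.77 FPKM in DNCB and at most 0.226 FPKM in any other library. It reached the filter on low genes through the DNCB group alone, so that its test could only find it higher there. It was not called, with an adjusted p of 0.0623 relative to control, 0.0617 against scMSC and 0.146 against scivMSC. Other settings called it against control, with limma on log2(FPKM + 0.1) (adjusted p = 0.000839), with limma on log2(FPKM + 1) (0.000259), with only the 6 libraries compared (0.0330) and without control replicate 2 (0.0316), against scMSC, with limma on log2(FPKM + 0.1) (adjusted p = 0.00112), with limma on log2(FPKM + 1) (0.000261), with only the 6 libraries compared (0.0262) and without control replicate 2 (0.0473), and against scivMSC, with limma on log2(FPKM + 0.1) (adjusted p = 0.00382) and with limma on log2(FPKM + 1) (0.000685). The macrophage elastase Mmp12 measured 0.971, 1.35 and 0.526 FPKM in DNCB and 3.69, 0.416 and 0.0560 FPKM in scivMSC, where 1 library exceeded all others. It passed in no comparison, except in DNCB against control with only the 6 libraries compared (adjusted p = 0.0138).

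Among the membrane-type MMPs, Mmp14 rose and Mmp15 did not. Mmp14, which cuts collagen at the cell surface and activates the Mmp2 precursor, measured 53.2, 54.6 and 50.8 FPKM in DNCB, 10.4, 7.73 and 13.9 FPKM in control, 32.3, 15.8 and 15.8 FPKM in scMSC and 28.0, 35.6 and 11.0 FPKM in scivMSC. Its 3 DNCB libraries lay close together and above all others. The log2 fold change was 2.13 ± 0.39 (adjusted p = 0.00312) relative to control, 1.3 ± 0.38 (adjusted p = 0.0459) against scMSC and 1.10 ± 0.38 (adjusted p = 0.103) against scivMSC, where it did not pass except with DESeq2 (adjusted p = 0.0275). The call against scMSC was lost on leaving out replicate 1, 2 or 3 of control, replicate 1, 2 or 3 of DNCB, replicate 2 or 3 of scMSC or replicate 1 of scivMSC (adjusted p = 0.0557 to 0.157), as well as with library size alone (adjusted p = 0.0659) and without the filter (0.0556).

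Mmp15 was lower in DNCB than control, with 5.69, 4.43 and 4.32 FPKM in DNCB, 7.44, 7.00 and 7.10 FPKM in control, 4.99, 3.03 and 3.79 FPKM in scMSC and 4.80, 4.11 and 4.75 FPKM in scivMSC. All 9 libraries of the 3 DNCB-treated groups lay under the 3 control libraries. Its log2 fold change in DNCB against control was -0.76 ± 0.17 (adjusted p = 0.00843), which passed the adjusted p but not the fold limit. In scMSC against control it was called, at -1.04 ± 0.17 (adjusted p = 0.00302), and without scMSC replicate 2 the size was under the limit, at -0.97. In scivMSC it was -0.83 ± 0.17 (adjusted p = 0.0119). With library size alone the scMSC value was -0.87, also under the limit.

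Lower down, Mmp17 and Mmp25, both held in the membrane by a lipid anchor, stayed under 1 FPKM and lie outside the naming rule. Mmp17 measured 0.741, 0.766 and 0.452 FPKM in DNCB and 0.249, 0.153 and 0.226 FPKM in control and was called against control, at 1.46 ± 0.35 (adjusted p = 0.0113), and against scMSC, at 1.20 ± 0.34 (adjusted p = 0.0430). The latter call was lost on leaving out replicate 3 of control, replicate 1 or 2 of DNCB, replicate 2 or 3 of scMSC or replicate 1 or 2 of scivMSC (adjusted p = 0.0533 to 0.140) and with library size alone (adjusted p = 0.0538), with limma on log2(FPKM + 0.1) (0.0628), without the filter (0.0653) and with only the 6 libraries compared (0.0920). Mmp25, a protease of leukocytes, measured 0.528, 0.698 and 0.641 FPKM in DNCB and 0.157, 0.0391 and 0.0891 FPKM in scMSC. It was called against scMSC, at 2.71 ± 0.66 (adjusted p = 0.0215), a call lost on leaving out replicate 2 or 3 of DNCB or replicate 2 or 3 of scMSC (adjusted p = 0.0542 to 0.0748). Against control it was not called, at 1.59 ± 0.63 (adjusted p = 0.0896), but passed with DESeq2 (adjusted p = 0.0390) and with limma on log2(FPKM + 0.1) (0.0248). Against scivMSC it was not called, at 2.08 ± 0.64 (adjusted p = 0.0727), but passed with DESeq2 (adjusted p = 0.00846), with limma on log2(FPKM + 0.1) (0.0369) and without control replicate 2 or scivMSC replicate 2 (0.0464 to 0.0466). Mmp16 was not called in any comparison, and Mmp24 was too low to be tested.

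Of the remaining MMPs, Mmp19 and Mmp23 rose in DNCB. Mmp19, a protease of basement membrane proteins, measured 11.9, 11.4 and 13.3 FPKM in DNCB, 2.23, 2.81 and 3.35 FPKM in control, 5.24, 2.15 and 3.26 FPKM in scMSC and 4.92, 7.87 and 2.25 FPKM in scivMSC, with no overlap between DNCB and the others. The log2 fold change of Mmp19 was 1.94 ± 0.39 (adjusted p = 0.00495) relative to control and 1.77 ± 0.39 (adjusted p = 0.0137) against scMSC, the latter lost on leaving out replicate 2 of scMSC (adjusted p = 0.0563). Against scivMSC it was 1.29 ± 0.38 (adjusted p = 0.0638), and it was called, at 1.75, without scivMSC replicate 2 (adjusted p = 0.0209) and, at 1.31, with DESeq2 (0.00859). Its neighbour on the other strand, Tmem198b, measured 6.805 ± 0.238 FPKM in DNCB and 4.55 ± 0.0559 FPKM in control.

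Mmp23, which is anchored by its own propeptide, measured 12.2, 15.3 and 11.5 FPKM in DNCB, 4.66, 4.42 and 4.58 FPKM in control, 5.80, 2.98 and 3.19 FPKM in scMSC and 6.94, 5.84 and 2.05 FPKM in scivMSC. DNCB stood above the other groups without overlap. Mmp23 gave a log2 fold change of 1.32 ± 0.37 (adjusted p = 0.0225), 1.69 ± 0.37 (adjusted p = 0.0138) and 1.41 ± 0.37 (adjusted p = 0.0409) against control, scMSC and scivMSC. These calls were lost on leaving out replicate 1, 2 or 3 of control or replicate 2 of DNCB (adjusted p = 0.0719 to 0.0742), on leaving out replicate 2 of DNCB or replicate 2 or 3 of scMSC (adjusted p = 0.0520 to 0.0617) and on leaving out replicate 1, 2 or 3 of control, replicate 1, 2 or 3 of DNCB, replicate 2 of scMSC or replicate 1, 2 or 3 of scivMSC (adjusted p = 0.0543 to 0.129), in that order, the last also with library size alone (adjusted p = 0.0589), without the filter (0.0534) and with only the 6 libraries compared (0.0938). Mmp28, an MMP of keratinocytes, measured 2.04, 1.31 and 2.62 FPKM in DNCB and 3.46, 2.35 and 4.30 FPKM in control and was not called, at -0.94 ± 0.42 (adjusted p = 0.135). Mmp27 was not called either.

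A group of 10 MMP genes lies next to each other on chromosome 9, from 7272514 to 7699585 of GRCm38, in the order Mmp13, Mmp12, Mmp1b, Mmp3, Mmp1a, Mmp10, Mmp8, Mmp27, Mmp20 and Mmp7. This grouping was made after the values were seen. Mmp3, Mmp13, Mmp8 and Mmp1b were called higher in DNCB than control. Mmp12, Mmp10 and Mmp27 were tested and not called, although all DNCB libraries of Mmp10 lay above all others. Mmp1a, Mmp7 and Mmp20 were too low to be tested, and Mmp1a was above 0 in DNCB alone. Mmp20 was listed at 0 in all control and DNCB libraries and above 0 in all 3 scMSC libraries, at 0.0976, 0.225 and 0.129 FPKM. Mmp7 was above 0 in 1 library alone, DNCB replicate 3, at 0.205 FPKM. Levels in the cluster therefore ran from 0 to 93.6 FPKM in the same skin.

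**Figure D3:**
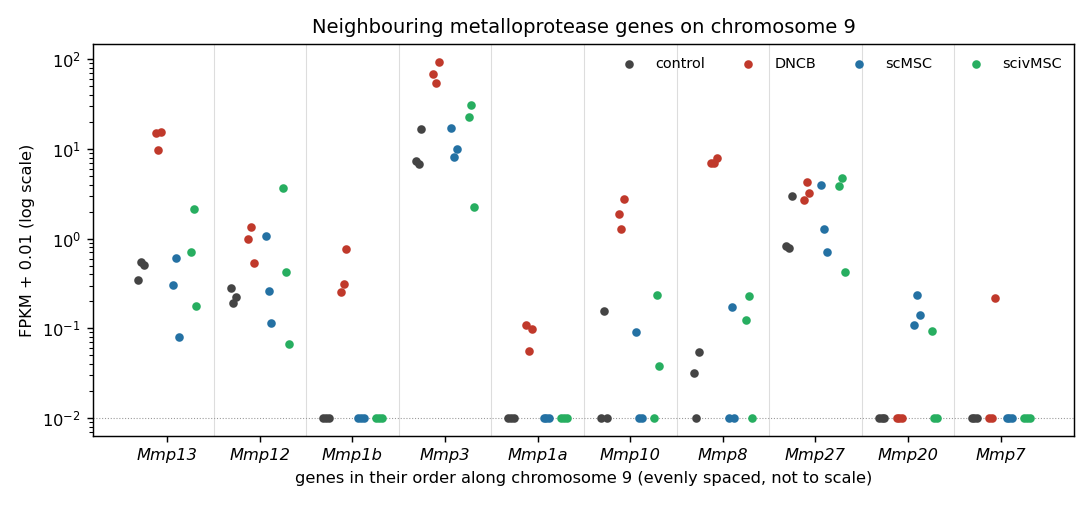
Level of the 10 neighbouring MMP genes on chromosome 9 in each library, as FPKM + 0.01 on a log axis, with genes in their order along the chromosome and not to scale. Points on the dotted line are libraries with 0 FPKM. DNCB libraries are highest for Mmp13, Mmp1b, Mmp3, Mmp1a, Mmp10 and Mmp8, and Mmp20 is above 0 in MSC libraries alone.

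The promoters of MMP genes are textbook targets of AP-1, the Fos and Jun factor that answers to inflammatory signals. RefSeq promoter windows on GRCm38.p6, 250 bases before to 50 after each annotated start, were searched for the AP-1 motif TGANTCA, which is its own reverse complement. The motif stood in 7.81% of all 32851 windows and in at least 1 window of 8.97% of the 27025 genes that had any. Windows were available for 47 of the 75 genes, and 10 of these genes held the motif, 8 of them in the chromosome 9 cluster and the others Adam19 and Adam1b. All 10 genes of the cluster had a window. Below are the 100 bases before the start for 5 cluster genes with the motif, chosen because their transcript levels range from the highest of the cluster to 0 in DNCB skin, and for Mmp8, which was called and held no motif. Capitals mark the motif. The strand is minus for Mmp1b and plus for the others.
Mmp13 (chr9:7272414-7272513): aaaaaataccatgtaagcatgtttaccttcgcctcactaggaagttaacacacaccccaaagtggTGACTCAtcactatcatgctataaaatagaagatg
Mmp3 (chr9:7445722-7445821): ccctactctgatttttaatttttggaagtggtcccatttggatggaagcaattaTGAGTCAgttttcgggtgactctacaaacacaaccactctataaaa
Mmp10 (chr9:7502242-7502341): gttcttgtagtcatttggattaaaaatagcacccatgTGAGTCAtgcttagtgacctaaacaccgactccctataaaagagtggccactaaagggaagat
Mmp1b (chr9:7388027-7388126): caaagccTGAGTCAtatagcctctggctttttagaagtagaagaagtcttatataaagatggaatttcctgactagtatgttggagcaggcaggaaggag
Mmp20 (chr9:7628131-7628230): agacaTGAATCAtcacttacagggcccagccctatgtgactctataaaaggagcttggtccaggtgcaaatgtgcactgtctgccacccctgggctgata
Mmp8 (chr9:7558329-7558428): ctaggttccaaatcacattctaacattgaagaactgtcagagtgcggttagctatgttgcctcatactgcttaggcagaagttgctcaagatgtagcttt

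In these windows the motif began 35 bases before the start in Mmp13, 46 in Mmp3, 63 in Mmp10, 93 in Mmp1b and 95 in Mmp20. The motif was also present in Mmp1a, in 1 of 2 windows of Mmp12 and in 1 of 2 windows of Mmp7, and it was not found in the windows of Mmp8 and Mmp27. Of the 22 genes called higher in DNCB than control, 14 had a window and 4 held the motif, namely Mmp13, Mmp3, Mmp1b and Adam19. Genes with and without the motif were thus found among those that rose. A match is a description of these letters and says nothing of binding.

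In the ADAMTS family, 6 of 17 tested genes were called higher in DNCB than control and none was called lower. Of all genes tested, 6.59% were called higher and 7.57% lower. Adamts4, an aggrecan- and versican-cutting protease, had the largest fold change of the family against control, with 7.16, 8.27 and 7.32 FPKM in DNCB, 0.118, 0.483 and 0.112 FPKM in control, 1.3, 0.433 and 0.514 FPKM in scMSC and 1.71, 4.49 and 1.29 FPKM in scivMSC. The DNCB libraries lay above all others, and scivMSC replicate 2 stood highest among the rest. In the fit, Adamts4 had a log2 fold change of 4.78 ± 0.73 (adjusted p = 0.00146) relative to control and 3.33 ± 0.68 (adjusted p = 0.00984) against scMSC, and it was not called against scivMSC, at 1.61 ± 0.63 (adjusted p = 0.154). It passed there with DESeq2 (adjusted p = 0.0475) and with limma on log2(FPKM + 1) (0.0154).

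Adamts9, a versican protease, measured 2.84, 2.89 and 3.19 FPKM in DNCB, 0.689, 0.680 and 0.697 FPKM in control, 2.23, 1.38 and 1.21 FPKM in scMSC and 1.76, 2.16 and 1.05 FPKM in scivMSC. The control libraries lay under all others. On the log2 scale Adamts9 differed by 1.92 ± 0.25 (adjusted p = 0.000885) relative to control, 0.87 ± 0.24 (adjusted p = 0.0403) against scMSC and 0.85 ± 0.24 (adjusted p = 0.0590) against scivMSC, the last 2 under the fold limit. Without scMSC replicate 1 the scMSC comparison was called, at 1.14 (adjusted p = 0.0130), and without scivMSC replicate 2 the scivMSC comparison was called, at 1.06 (0.0339). Adamts15, from the same group of versican proteases, measured 4.94, 5.48 and 6.11 FPKM in DNCB and 0.709, 1.44 and 0.948 FPKM in control. It was called against control, at 2.23 ± 0.41 (adjusted p = 0.00343), and not against scMSC, at 0.94 ± 0.40 (adjusted p = 0.166), or scivMSC, at 0.67 ± 0.40 (adjusted p = 0.355). Leaving out scMSC replicate 1 made the scMSC comparison a call, at 1.47 (adjusted p = 0.0291).

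Adamts1 passed the adjusted p against control but not the fold limit, at 0.67 ± 0.21 (adjusted p = 0.0360), with 20.5 ± 4.05 FPKM in DNCB and 11.3 ± 1.10 FPKM in control. Adamts5, the main aggrecan protease of cartilage, was not called against control, at 0.81 ± 0.38 (adjusted p = 0.147), though its DNCB libraries lay above all others. Against scMSC, at 1.16 (adjusted p = 0.0748), and scivMSC, at 1.12 (0.102), it was not called either. DESeq2 called both (adjusted p = 0.0193 and 0.0285). Leaving out scMSC replicate 1 or scivMSC replicate 3 also made the scMSC comparison a call (adjusted p = 0.0167 to 0.0293). Adamts20, the gene of the belted coat pattern, was highest in scMSC, at 1.06, 1.13 and 1.10 FPKM beside 0.461, 0.215 and 0.733 FPKM in DNCB and 0.492, 0.365 and 0.456 FPKM in control. It was called lower in DNCB than scMSC, at -1.25 ± 0.37 (adjusted p = 0.0471). This call rested near its threshold and was lost on leaving out any library but DNCB replicate 3 (adjusted p = 0.0512 to 0.131) and under library size alone (0.0604), no filter (0.0659) and the 6 libraries compared alone (0.115).

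Among the other ADAMTS genes, Adamts12 and Adamts7, which share the cartilage oligomeric matrix protein as a substrate, were called higher in DNCB than control. Adamts12 measured 3.87, 4.45 and 4.28 FPKM in DNCB and 0.633, 0.512 and 1.16 FPKM in control, a log2 fold change of 2.29 ± 0.67 (adjusted p = 0.0286). This call was lost on leaving out replicate 1 or 2 of control or replicate 1, 2 or 3 of DNCB (adjusted p = 0.0575 to 0.104). Adamts7 measured 3.26, 2.62 and 2.97 FPKM in DNCB, 1.49, 0.748 and 0.650 FPKM in control and 1.13, 0.748 and 1.35 FPKM in scMSC, with every DNCB library above every other. It was called against control, at 1.41 ± 0.32 (adjusted p = 0.00912), and against scMSC, at 1.44 ± 0.32 (adjusted p = 0.0150). The latter was lost on leaving out replicate 1 of DNCB or replicate 2 of scMSC (adjusted p = 0.0530 to 0.0594). Adamts7 measured 1.36, 1.78 and 1.255 FPKM in scivMSC, where it was not called, at 1.00 (adjusted p = 0.0829). It passed there with DESeq2 (adjusted p = 0.0185), with only the 6 libraries compared (0.0274) and without control replicate 1 (0.0283). Of the procollagen N-propeptidases, which trim new collagen before it forms fibrils, Adamts2 measured 20.8, 23.3 and 22.3 FPKM in DNCB and 5.25, 3.77 and 8.48 FPKM in control and was not called, at 1.76 ± 0.62 (adjusted p = 0.0603), but passed with DESeq2 (adjusted p = 0.0108), with library size alone (0.0489), with limma on log2(FPKM + 1) (0.0399), with only the 6 libraries compared (0.00401) and without scivMSC replicate 3 (0.00505). Adamts14 was not called either, at -0.13 ± 0.37 (adjusted p = 0.849). Adamts16 measured 0.730, 1.67 and 0.218 FPKM in DNCB and at most 0.0847 FPKM in any other library. It reached the filter on low genes through the DNCB group alone, so that its test could only find it higher there. Relative to control it was not called, at 4.36 ± 1.81 (adjusted p = 0.104). It passed against control with limma on log2(FPKM + 0.1) (adjusted p = 0.00752) and with only the 6 libraries compared (0.0410).

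The ADAMTS-like proteins have no protease domain and bind the fibrillin microfibrils of the matrix. Of 5 tested genes, 2 were called lower in DNCB than control and none higher, beside 7.57% and 6.59% of all genes tested. Adamtsl4 measured 6.27, 8.69 and 7.59 FPKM in DNCB, 22.4, 16.4 and 18.1 FPKM in control, 15.1, 7.22 and 12.4 FPKM in scMSC and 14.3, 11.8 and 14.6 FPKM in scivMSC. The MSC groups lay between control and DNCB, except that scMSC replicate 2 fell among the DNCB libraries. The log2 fold change of Adamtsl4 was -1.52 ± 0.24 (adjusted p = 0.00156) relative to control, -0.63 ± 0.23 (adjusted p = 0.109) against scMSC and -0.86 ± 0.23 (adjusted p = 0.0466) against scivMSC. Adamtsl5 measured 6.42, 6.64 and 7.48 FPKM in DNCB and 16.6, 12.2 and 9.97 FPKM in control, and both MSC groups, at 7.68, 5.79 and 9.30 FPKM in scMSC and 5.90, 5.52 and 7.21 FPKM in scivMSC, overlapped with DNCB and lay under the control libraries. It was called against control, at -1.11 ± 0.22 (adjusted p = 0.00519), though without control replicate 1 the size was under the fold limit, at -0.91, as it was with library size alone (-0.92) and limma on log2(FPKM + 0.1) (-0.88).

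Of the 15 tested ADAM genes, 4 were called higher in DNCB than control, beside 6.59% of all genes tested. All 4 were among the 8 tested somatic members with a protease domain. Adam8, a protease of activated leukocytes that sheds adhesion molecules, measured 31.1, 29.7 and 23.2 FPKM in DNCB, 2.25, 1.28 and 3.86 FPKM in control, 3.33, 1.59 and 1.25 FPKM in scMSC and 3.73, 8.51 and 2.53 FPKM in scivMSC. Even the highest library outside DNCB, scivMSC replicate 2, was far under the lowest DNCB library. Adam8 gave a log2 fold change of 3.34 ± 0.52 (adjusted p = 0.00159) relative to control, 3.75 ± 0.53 (adjusted p = 0.00239) against scMSC and 2.52 ± 0.51 (adjusted p = 0.0159) against scivMSC. The last call was lost on leaving out replicate 1 or 2 of DNCB or replicate 1 or 3 of scivMSC (adjusted p = 0.0505 to 0.0710).

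Adam12, a protease of stromal cells during tissue repair, measured 10.5, 11.3 and 9.42 FPKM in DNCB, 0.491, 0.245 and 0.250 FPKM in control, 2.03, 1.07 and 0.452 FPKM in scMSC and 2.01, 3.15 and 0.549 FPKM in scivMSC. The 3 DNCB libraries were above all others, and the MSC libraries ranged from the level of control upwards. In the fit, Adam12 had a log2 fold change of 4.79 ± 0.68 (adjusted p = 0.00118), 3.12 ± 0.63 (adjusted p = 0.00956) and 2.47 ± 0.61 (adjusted p = 0.0337) against control, scMSC and scivMSC, the last lost on leaving out replicate 1, 2 or 3 of DNCB or replicate 1 or 3 of scivMSC (adjusted p = 0.0730 to 0.108). Adam19, a sheddase of neuregulins, measured 5.43, 8.53 and 6.28 FPKM in DNCB and 1.86, 1.75 and 3.24 FPKM in control. It was called against control, at 1.40 ± 0.42 (adjusted p = 0.0337), a call lost on leaving out replicate 1 or 2 of control or replicate 1, 2 or 3 of DNCB (adjusted p = 0.0509 to 0.125). Against scMSC it was not called, at 1.22 ± 0.42 (adjusted p = 0.0888), but passed without scMSC replicate 1 or scivMSC replicate 3 (adjusted p = 0.0274 to 0.0475) and with DESeq2 (0.0257).

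The ubiquitous sheddases moved less. Adam10, which releases Notch and cadherin fragments, measured 26.4, 25.1 and 26.1 FPKM in DNCB, 9.93, 9.13 and 12.1 FPKM in control, 22.0, 20.9 and 20.6 FPKM in scMSC and 20.1, 22.1 and 14.4 FPKM in scivMSC. All 9 DNCB-treated libraries, with or without MSCs, lay above the 3 controls. On the log2 scale Adam10 differed by 1.14 ± 0.13 (adjusted p = 0.000608) relative to control and under the fold limit in scMSC against control, at 0.87 ± 0.13 (adjusted p = 0.00203), and scivMSC against control, at 0.68 ± 0.13 (adjusted p = 0.00933). The comparison of scMSC with control was called with library size alone, at 1.027 (adjusted p = 0.00175), and with limma on log2(FPKM + 0.1), at 1.03 (0.00148). DNCB against scMSC gave 0.26 ± 0.13 (adjusted p = 0.238) and DNCB against scivMSC 0.46 ± 0.13 (adjusted p = 0.0578). Adam17, which releases tumour necrosis factor and epidermal growth factor receptor ligands, measured 10.6, 10.2 and 10.6 FPKM in DNCB, above all 9 other libraries, and 6.11, 5.63 and 7.99 FPKM in control. It passed the adjusted p but not the fold limit against control, at 0.49 ± 0.15 (adjusted p = 0.0294), and against scMSC, at 0.73 ± 0.15 (adjusted p = 0.00931). Adam15 passed in the same way against control alone, at 0.60 ± 0.17 (adjusted p = 0.0254). Adam9 and Adam33 passed in none of the 3 comparisons. The ADAMs without protease activity (Adam11, Adam22 and Adam23) were not called, except Adam22 in DNCB against scMSC without scMSC replicate 1 (adjusted p = 0.0324), and 4 of the remaining ADAM genes, mostly of the male germ line, reached the filter. Of these, Adam1a passed the adjusted p but not the fold limit, lower in DNCB than scMSC, at -0.89 ± 0.24 (adjusted p = 0.0348), and than scivMSC, at -0.88 ± 0.24 (adjusted p = 0.0471). Adam1a overlaps the protein-coding genes Mapkapk5 and Gm42878 on the same strand, so its level is uncertain.

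The 4 TIMPs went different ways. Timp1, the inducible inhibitor, measured 52.7, 50.0 and 75.4 FPKM in DNCB, 2.92, 2.58 and 1.81 FPKM in control, 3.70, 1.86 and 1.08 FPKM in scMSC and 2.87, 10.5 and 1.90 FPKM in scivMSC. The DNCB libraries were far above all others, among which scivMSC replicate 2 was the highest. The log2 fold change of Timp1 was 4.40 ± 0.65 (adjusted p = 0.00131) relative to control, 4.72 ± 0.66 (adjusted p = 0.00239) against scMSC and 3.56 ± 0.63 (adjusted p = 0.00948) against scivMSC, and no library left out removed any of these calls. Timp1 lies on chromosome X at 20870166 to 20874735, on the plus strand.

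Timp3, the inhibitor that binds to the matrix and blocks ADAMs as well as MMPs, fell in DNCB. It measured 18.4, 16.3 and 17.4 FPKM in DNCB, 40.6, 26.6 and 27.2 FPKM in control, 45.3, 32.6 and 28.2 FPKM in scMSC and 39.2, 31.7 and 22.4 FPKM in scivMSC, and it was the gene of the set with all 3 DNCB libraries under all others. Timp3 gave a log2 fold change of -1.05 ± 0.23 (adjusted p = 0.00817) relative to control, -1.05 ± 0.23 (adjusted p = 0.0148) against scMSC and -0.84 ± 0.23 (adjusted p = 0.0502) against scivMSC, where it did not pass. The first 2 values sat close to the fold limit. Against control it was -0.84 without control replicate 1, -0.86 with library size alone and -0.83 with limma on log2(FPKM + 0.1). Against scMSC the call was lost, by size or by p, on leaving out replicate 2 or 3 of DNCB or replicate 1 of scMSC (adjusted p = 0.0428 to 0.0604), and by size with limma on log2(FPKM + 0.1), at -0.996. Against scivMSC it was gained without scivMSC replicate 3, at -1.015 (adjusted p = 0.0482).

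Timp2, the gene of the set with the highest mean over all 12 libraries, though under Mmp2 in each DNCB library, both inhibits MMPs and helps Mmp14 to activate the Mmp2 precursor. It measured 108, 125 and 109 FPKM in DNCB, 69.9, 73.3 and 102 FPKM in control, 134, 55.3 and 72.3 FPKM in scMSC and 124, 108 and 27.2 FPKM in scivMSC, so that the MSC groups spread over more than the range of the others. No comparison passed, and the log2 fold change against control was 0.30 ± 0.44 (adjusted p = 0.669). Timp4 was lower in DNCB than in the MSC groups, with 0.803, 0.495 and 0.949 FPKM in DNCB, 0.679, 0.961 and 1.39 FPKM in control, 1.90, 1.13 and 2.29 FPKM in scMSC and 2.22, 1.94 and 1.40 FPKM in scivMSC. In the fit, Timp4 had a log2 fold change of -0.61 ± 0.33 (adjusted p = 0.207) relative to control, which did not pass, -1.26 ± 0.33 (adjusted p = 0.0310) against scMSC and -1.31 ± 0.33 (adjusted p = 0.0366) against scivMSC. These calls were lost on leaving out replicate 1 or 2 of DNCB or replicate 1 or 3 of scMSC (adjusted p = 0.0625 to 0.111) and on leaving out replicate 1, 2 or 3 of DNCB or replicate 1, 2 or 3 of scivMSC (adjusted p = 0.0535 to 0.125), respectively. The first was also lost with limma on log2(FPKM + 0.1) (adjusted p = 0.0547) and with only the 6 libraries compared (0.0593) and the second with library size alone (adjusted p = 0.0544) and with limma on log2(FPKM + 0.1) (0.0508). The summed level of 6 adipocyte markers was 150 to 282 FPKM in DNCB, 422 to 483 FPKM in control, 305 to 626 FPKM in scMSC and 436 to 865 FPKM in scivMSC, and its part in the Timp4 difference was not tested.

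Timp1, Timp3 and Timp4 overlap the synapsin genes Syn1, Syn3 and Syn2 on the other strand. The synapsin levels were low throughout, at most 0.374 FPKM for Syn1, 0.362 FPKM for Syn3 and 0.633 FPKM for Syn2. Per length, these levels were small beside those of Timp1 and Timp3 and of the same order as those of Timp4.

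**Figure D4:**
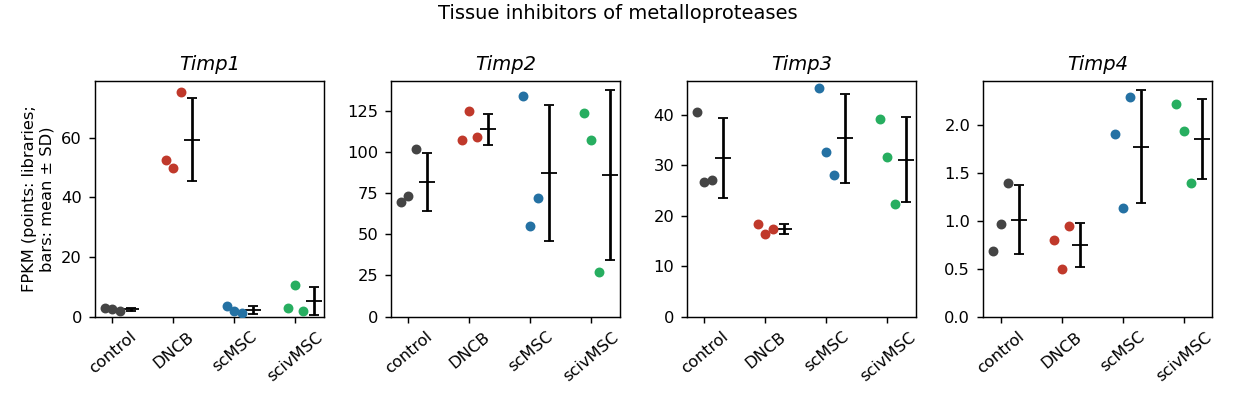
FPKM of the 4 TIMP genes, with a point for each library and bars for mean ± SD (n = 3 libraries per group), on linear axes from 0. Timp1 is high in DNCB alone, Timp3 is lowest in DNCB, Timp2 spreads most in the MSC groups, which overlap with both control and DNCB, and the means of Timp4 are highest in the MSC groups.

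Summed over each family, the MMP level exceeded the TIMP level in all 3 DNCB libraries and in no control library. The 23 MMP genes added up to 392.5 ± 36.0 FPKM in DNCB, 83.4 ± 18 FPKM in control, 136.2 ± 75.8 FPKM in scMSC and 148.1 ± 90.4 FPKM in scivMSC. The 4 TIMP genes added up to 191.4 ± 11.8, 116.6 ± 14.6, 126.5 ± 50.9 and 124.2 ± 62.2 FPKM. The ratio of the summed MMP level to the summed TIMP level was 2.11, 1.91 and 2.13 in the DNCB libraries and 0.669, 0.677 and 0.785 in the control libraries. It was 1.21, 0.904 and 0.998 in the scMSC libraries and 1.14, 1.37 and 0.833 in the scivMSC libraries. All DNCB libraries had the higher ratio, and every MSC library had a ratio above every control library. The two-sided exact permutation p of the ratio was 0.10 for DNCB against each other group and for each MSC group against control, which is the smallest that 3 against 3 libraries allow, and 0.70 between the MSC groups. These are ratios of transcript levels and not of protein or activity.

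The makeup of the sums differed between groups as well. Timp1 made up 30.9 ± 5.66% of the TIMP sum in DNCB and 2.14 ± 0.670% in control, beside 1.70 ± 0.569% in scMSC and 4.06 ± 2.63% in scivMSC. Timp3 made up 9.10 ± 0.983% in DNCB and 27.3 ± 7.64% in control. Mmp2 held the largest part of the MMP sum in control, DNCB, scMSC and scivMSC, at 44.65 ± 3.41%, 37.65 ± 0.484%, 50.25 ± 9.11% and 40.3 ± 8.36%, respectively.

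**Figure D5:**
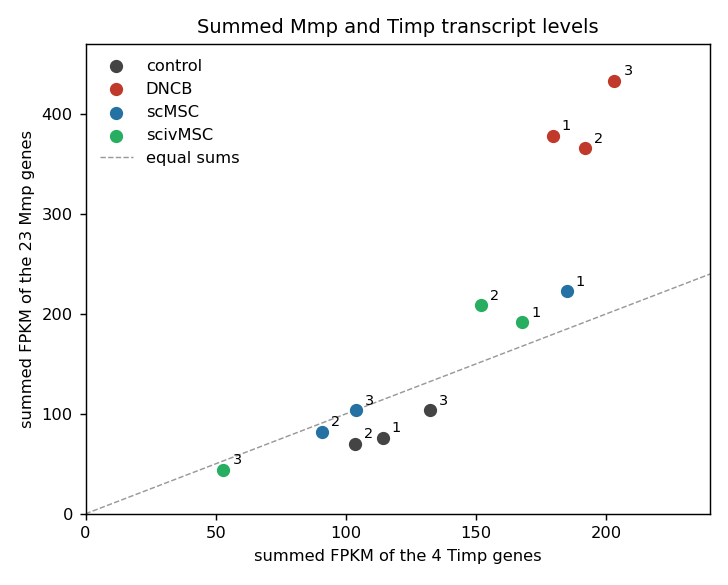
Summed FPKM of the 23 MMP genes against the summed FPKM of the 4 TIMP genes, with 1 point per library labelled with its replicate number and a dashed line where both sums are equal. The DNCB libraries stand far above the line, the control libraries lie under it, and scMSC replicate 1 and scivMSC replicates 1 and 2 lie above it.

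The MSC groups were also compared with control directly. In scMSC against control, 5 genes were called higher and 1 lower, beside 5.12% and 4.20% of all genes. In scivMSC against control, 5 were higher and 1 lower, beside 3.50% and 3.35%. These counts lie near the shares of all genes, and without the filter on low values the count in scMSC was 3. None of the collagenases, gelatinases or stromelysins was called in either comparison. Mmp1b was at 0 in every library outside DNCB, so it could not be called there. Mmp8 and Mmp10 reached the filter through their DNCB level, so a call was hardly possible for them either. Mmp11 came near, at 1.86 ± 0.61 (adjusted p = 0.0565) in scMSC and 1.86 ± 0.61 (adjusted p = 0.0688) in scivMSC. In scMSC it passed with DESeq2 (adjusted p = 0.00802), with library size alone (0.0425), with the filter at 1 FPKM (0.0472) and without scMSC replicate 3 or scivMSC replicate 3 (0.0267 to 0.0368), and in scivMSC with DESeq2 (adjusted p = 0.01005), with library size alone (0.0446) and without scivMSC replicate 3 (0.0191). In scMSC only 2 genes were called when control replicate 1 or scMSC replicate 2 was left out, and 3 when scivMSC replicate 1 was. In scivMSC the corresponding counts were 2 when control replicate 1 or scivMSC replicate 2 was left out and 3 when control replicate 3 or scivMSC replicate 1 was. Calls over all genes in scMSC, 1120 higher and 920 lower, were 790 and 728, 731 and 633, and 1056 and 879 in these runs. In scivMSC, calls over all genes, 766 higher and 734 lower, were 407 and 438, 495 and 348, 596 and 847, and 573 and 391.

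Of the 5 genes called higher than control in each MSC group, 4 were among the 17 tested ADAMTS genes. Of all genes, 5.12% were called higher in scMSC and 3.50% in scivMSC. Among these ADAMTS calls only those of Adamts18 held when any 1 library was left out. Adamts18, under 1 FPKM and outside the naming rule, measured 0.0669, 0.0967 and 0.0524 FPKM in control, 0.442, 0.423 and 0.206 FPKM in DNCB, 0.651, 0.411 and 0.406 FPKM in scMSC and 0.439, 0.764 and 0.362 FPKM in scivMSC. It was called against control in DNCB, at 2.10 ± 0.41 (adjusted p = 0.00456), in scMSC, at 2.56 ± 0.42 (adjusted p = 0.00284), and in scivMSC, at 2.64 ± 0.42 (adjusted p = 0.00557), and these calls held without any 1 library. Adamts9 was called in scMSC against control, at 1.05 ± 0.25 (adjusted p = 0.0144), and in scivMSC, at 1.07 ± 0.25 (adjusted p = 0.0180). These were lost, by size or by p, on leaving out replicate 1, 2 or 3 of control or replicate 1 of scMSC (adjusted p = 0.0391 to 0.0590) and on leaving out replicate 1, 2 or 3 of control or replicate 1 or 2 of scivMSC (adjusted p = 0.0566 to 0.0703), respectively, the second also with only the 6 libraries compared (adjusted p = 0.0576).

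Adamts15, at 4.77, 1.94 and 1.89 FPKM in scMSC and 3.68, 4.83 and 1.93 FPKM in scivMSC, was called in both, at 1.29 ± 0.40 (adjusted p = 0.0472) and 1.55 ± 0.40 (adjusted p = 0.0294). The first was lost on leaving out replicate 1 or 3 of control, replicate 1, 2 or 3 of DNCB, replicate 1 or 2 of scMSC or replicate 1 of scivMSC (adjusted p = 0.0634 to 0.172) and without the filter (adjusted p = 0.0675) and with only the 6 libraries compared (0.107). The second was lost on leaving out replicate 1 or 3 of control or replicate 1 or 2 of scivMSC (adjusted p = 0.0766 to 0.121) and with only the 6 libraries compared (adjusted p = 0.0661). Adamts4 was called in scivMSC against control, at 3.17 ± 0.68 (adjusted p = 0.0144), a call lost on leaving out replicate 1 of control or replicate 2 of scivMSC (adjusted p = 0.0503 to 0.0599) and with only the 6 libraries compared (adjusted p = 0.0645). In scMSC it was not, at 1.46 ± 0.65 (adjusted p = 0.149), except without control replicate 2 (adjusted p = 0.0276). Adam12 was called in scivMSC against control, at 2.31 ± 0.62 (adjusted p = 0.0326), and lost on leaving out replicate 1, 2 or 3 of control or replicate 1 or 2 of scivMSC (adjusted p = 0.0591 to 0.118) and with only the 6 libraries compared (adjusted p = 0.0788). In scMSC it was not called, at 1.67 ± 0.61 (adjusted p = 0.0814), but passed with DESeq2 (adjusted p = 0.0199) and without scMSC replicate 3 or scivMSC replicate 3 (0.0398 to 0.0421).

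Adamts20 was called higher in scMSC than control, at 1.17 ± 0.37 (adjusted p = 0.0482), and in scivMSC it was 0.15 ± 0.36 (adjusted p = 0.836). This call was lost on leaving out replicate 1, 2 or 3 of control, replicate 1 of DNCB, replicate 1, 2 or 3 of scMSC or replicate 1, 2 or 3 of scivMSC (adjusted p = 0.0541 to 0.151) and without the filter (adjusted p = 0.0780). Adam4, a gene of the male germ line outside the naming rule, was called higher in scMSC than control, at 1.53 ± 0.47 (adjusted p = 0.0440), with 0.716, 0.925 and 1.06 FPKM in scMSC and 0.272, 0.263 and 0.293 FPKM in control, and lost on leaving out replicate 1, 2 or 3 of control, replicate 3 of DNCB, replicate 2 or 3 of scMSC or replicate 1 or 3 of scivMSC (adjusted p = 0.0546 to 0.122) and without the filter (adjusted p = 0.0749). Adam4 overlaps the protein-coding genes Cox16 and Gm20498 on the same strand, so its level is uncertain. Adamtsl5 was called lower in scivMSC than control, at -1.23 ± 0.23 (adjusted p = 0.00791), and held without any 1 library. The 10 genes of the hair shaft and inner root sheath summed to 6457 to 18070 FPKM in scMSC, 2502 to 5990 FPKM in scivMSC, 309 to 941 FPKM in DNCB and 13.5 to 361 FPKM in control, and their part in these differences was not tested.

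Between the injection routes no gene of the set was called, beside 0.00457% of all genes, which is 1 gene of 21890. An unadjusted p under 0.05 was seen for 4 of the 59 genes, namely Adam8, Adamts4, Adamts8 and Adamts20, beside 1642 of all 21890, and DESeq2 called none of the set. The median log2 fold change of scMSC against scivMSC was -0.28 over the 59 genes and -0.01 over all genes. The log2 fold changes of the 4 genes, each ± SE, were -1.24 ± 0.49 (adjusted p = 0.621) for Adam8, -1.72 ± 0.64 (adjusted p = 0.613) for Adamts4, -1.35 ± 0.60 (adjusted p = 0.663) for Adamts8 and 1.01 ± 0.36 (adjusted p = 0.613) for Adamts20. Spread within the MSC groups was wide. The summed MMP level was 222.9 FPKM in scMSC replicate 1 against 82.1 and 103.7 FPKM in replicates 2 and 3, and 191.8 and 208.4 FPKM in scivMSC replicates 1 and 2 against 44.1 FPKM in replicate 3.

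Regulators outside the families were taken from a list of 27 genes, 25 of them tested. In DNCB against control 10 were called higher and 1 lower, against scMSC 6 and 1, and against scivMSC 4 and 1. Of all genes tested, 6.59% were higher and 7.57% lower against control, 3.84% and 4.66% against scMSC, and 2.33% and 3.13% against scivMSC. The medians were 0.29, 0.37 and 0.36, beside 0.02, -0.02 and -0.02 over all genes. Of the plasmin system, which activates MMP precursors, the urokinase receptor Plaur had 1.41, 28.1, 1.55 and 2.59 FPKM in control, DNCB, scMSC and scivMSC, and log2 fold changes of 4.14 ± 0.59 (adjusted p = 0.00114) relative to control, 4.14 ± 0.59 (adjusted p = 0.00239) against scMSC and 3.45 ± 0.57 (adjusted p = 0.00746) against scivMSC. Urokinase itself, Plau, lay close to the fold limit, at 1.02 ± 0.29 (adjusted p = 0.0251) relative to control. Pcsk5, a convertase that activates proproteins, was 2.66 ± 0.38 (adjusted p = 0.00114) relative to control, while Furin, which activates membrane-type MMPs and ADAMs, was 0.29 ± 0.16 (adjusted p = 0.215) and was not called. The membrane-anchored MMP inhibitor Reck was not called, at -0.16 ± 0.41 (adjusted p = 0.827). Tspan15, a partner of Adam10, was the 1 regulator called lower against control, at -1.003 ± 0.231 (adjusted p = 0.00964).

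Matrix proteins that these enzymes cut were taken from a list of 22 substrates, 20 of them tested. In DNCB 12 were called higher than in control, 9 than in scMSC and 4 than in scivMSC, beside 6.59%, 3.84% and 2.33% of all genes, and none was called lower, with medians of 1.88, 1.51 and 1.11. The list shares Col1a1, Col1a2, Dcn and Lum with the fibroblast markers. Col1a1 and Col3a1, the main fibrillar collagens of dermis, had group means of 53.6, 702, 113 and 176 FPKM and 73.9, 744, 130.4 and 182 FPKM in control, DNCB, scMSC and scivMSC. Their log2 fold changes against control were 3.53 ± 0.66 (adjusted p = 0.00346) and 3.16 ± 0.65 (adjusted p = 0.00562). Tenascin C, Tnc, a protein of healing wounds, was 4.78 ± 0.47 (adjusted p = 0.000431) relative to control, 4.07 ± 0.45 (adjusted p = 0.00147) against scMSC and 3.62 ± 0.44 (adjusted p = 0.00321) against scivMSC. Versican, Vcan, the substrate of the ADAMTS group above, was 2.69 ± 0.53 (adjusted p = 0.00451) relative to control and not called against scMSC, at 1.00 ± 0.50 (adjusted p = 0.240), or scivMSC, at 1.04 ± 0.50 (adjusted p = 0.247).

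Membrane proteins shed by ADAMs were taken from a list of 20 genes, 19 of them tested. In DNCB against control 6 were called higher and 1 lower, with 7 and 0 against scMSC and 4 and 0 against scivMSC. The shares of all genes were 6.59% and 7.57%, 3.84% and 4.66%, and 2.33% and 3.13%. Their medians were 0.66, 0.36 and 0.46, beside 0.02, -0.02 and -0.02 over all genes. Tnf, the cytokine released by Adam17, had group means of 0.892, 35.5, 1.63 and 2.25 FPKM in control, DNCB, scMSC and scivMSC and was 5.12 ± 0.78 (adjusted p = 0.00146) relative to control on the log2 scale. Cd44, the hyaluronan receptor, was 2.50 ± 0.26 (adjusted p = 0.000471) relative to control, 1.46 ± 0.25 (adjusted p = 0.00449) against scMSC and 1.63 ± 0.25 (adjusted p = 0.00567) against scivMSC. The growth factor precursor Areg was 3.26 ± 0.47 (adjusted p = 0.00118) relative to control, and Egf was called lower, at -1.3 ± 0.34 (adjusted p = 0.0176).

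The 16 genes too low to be tested were Adam2, Adam3, Adam7, Adam18, Adam21, Adam28, Adam30, Adam32, Adam34l, Adamts3, Adamts19, Mmp1a, Mmp7, Mmp20, Mmp21 and Mmp24. Their means over the 12 libraries were at most 0.0841 FPKM, the value of Adamts19. At this depth a difference in these genes was mostly not detectable.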

How the data were processed

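Whole dorsal skin was sequenced in 12 libraries, 3 per group, grouped by the labels. The authors deposited a table with estimated counts and FPKM values per gene and library, which were made, per the labels, with HISAT2 2.0, StringTie 1.3.0 and Bowtie 0.12.2. These notes name mm8, but the coordinates matched GRCm38. The estimated counts were whole numbers, of which about 4 made 1 fragment, so their precision is that of fewer fragments than the totals show, and whether strand was used in counting was not stated.

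Genes that averaged 0.1 FPKM or more were tested in 1 model of the 4 groups with edgeR 4.0.16 (quasi-likelihood test, TMM factors, R 4.3.3) and Benjamini-Hochberg adjustment. On simulated counts for DNCB against control with 200 of 21890 genes changed by a log2 of 2, the test recovered 77.5% and made 3 false calls. The changed genes were drawn from the more highly counted genes alone. The simulation did not copy the rate of about 4 estimated counts to 1 fragment. Recovery among low genes was therefore not measured. Alternatives were DESeq2 1.42.0, limma 3.58.1 on log2(FPKM + 0.1) and log2(FPKM + 1), library size alone, other filters, only the 6 libraries compared, the replicate number as a block, and leaving out each library. Named genes were the TIMPs, Mmp9 and Adam8, the genes called in any comparison with a mean of at least 1 FPKM in the higher group (up to 30 in the DNCB comparisons and 10 in the others), and the 10 with the highest mean. Other genes described were chosen after their values were seen or to complete a class. The genes and lists were chosen with earlier results of these data known. Tables were handled with Python 3.11.15 and pandas 2.3.3.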

Additional observations from a re-analysis of the deposited data

How the results depend on the processing

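Counts are of the 59 tested genes, except under the other filters. Without the filter, genes of the set under 0.1 FPKM were counted too. With the filter at 1 FPKM fewer genes of the set were tested, so those counts have another base. In DNCB against control, 25 genes were called, 22 to 29 under the other settings and 18 to 26 with 1 library left out. In DNCB against scMSC, 18 were called, 12 to 21 under the other settings and 10 to 21 with 1 library left out. In DNCB against scivMSC, 9 were called, 16 with DESeq2, and 2 to 11 with 1 library left out. Over all genes DESeq2 called 881 higher and 1003 lower there, beside 509 and 686 in the main fit. In scMSC against control, 6 were called, 0 with limma on log2(FPKM + 1), 3 without the filter and 2 to 7 with 1 library left out. In scivMSC against control, 6 were called, 2 with limma on log2(FPKM + 1), 2 with only the 6 libraries compared and 2 to 9 with 1 library left out. Between the routes 0 genes were called under all settings run. The cause of these changes was not tested, except that a pseudocount of 1 FPKM shrinks the fold changes of low genes by its construction. Replicate numbers did not pair the samples, judged by how each library deviated from the mean of its group. Between same-numbered libraries of different groups these deviations correlated at -0.185 to 0.133. By the same measure 3 of the 12 libraries correlated best with a library of their own number. The fit with a replicate block called 22, 15 and 8 genes in DNCB against control, scMSC and scivMSC. Against control it lost Adam19, Adamts12, Mmp1b and Mmp2 and gained Adamts16. Against scMSC it lost Adamts20, Mmp14, Mmp17, Mmp1b and Mmp3 and gained Adamts8 and Adamts16. Against scivMSC it lost Mmp1b and Mmp8 and gained Adamts16. In scMSC against control it lost Adam4, Adamts15 and Adamts20 and gained Mmp11. These changes are not given beside the single genes above. Of the 84 log2 fold changes of the named genes in the DNCB comparisons, 5 turned sign under 1 or more settings, and these were called under none. Adamts20 in DNCB against control was 0.10 with library size alone, 0.018 with limma on log2(FPKM + 1) and -0.55 to 0.26 with 1 library left out, and against scivMSC -0.71 to 0.10. The values in DNCB against scivMSC ran from -0.051 to 0.19 for Adam15, -0.068 to 0.14 for Mmp15 and -0.0032 to 0.77 for Timp2, with 1 library left out. Depth limits what can be said of the genes under 0.1 FPKM, which were not tested.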
